A study of Mus musculus with 20 samples.

Results

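Border-associated macrophages are the macrophages of the perivascular spaces, the meninges and the choroid plexus. They share Cx3cr1 with the microglia of the parenchyma, and are told from them by scavenger and endocytic receptors, by secreted factors and by a few membrane and metabolic genes. In the brain and spinal cord they take up debris and protein from the vessel wall and the fluid spaces. Of these genes 10 were followed here: the surface receptors Lyve1, Mrc1, Cd163, Folr2 and Siglec1, the secreted proteins Pf4, F13a1 and Cd5l, and Cbr2 and Ms4a7. They were chosen by symbol, with earlier results of these data known, and all 10 were among the 16810 genes of the deposited table. The shares of all genes set beside them below therefore describe the table and do not test the list. None of them is restricted to border macrophages: monocyte-derived macrophages are known to express many of them, and activated microglia some.

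The cells were sorted for high eGFP from the thoracic spinal cord of adult male CX3CR1+/eGFP mice, in which eGFP replaces 1 of the alleles of Cx3cr1, in non-injured (NI) animals as in the injured ones. The reporter marks microglia, border macrophages and circulating monocytes, and no marker of border macrophages entered the sort. Cells came from a segment centred on the lesion, and RNA was pooled over animals, so that p-values measure the spread between samples, part of which may be technical. There are 20 samples in 7 groups, of which NI holds 3. Cords with a lateral hemisection (HS) were taken 72 h (3 samples), 1 week (2) or 2 weeks (3) later, and those with a full transection (FT) at the same times (3 each).

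The sort was led by microglia. In NI samples Tmem119 and P2ry12, which mark parenchymal microglia, ranged from 1196 to 1263 and from 3739 to 5085 CPM, the read count normalised to library size. The 12 listed microglial genes summed to 23862 to 33873 CPM in NI and to 20150 to 38743 CPM over all injured samples. Depth ranged from 3872918 to 34099232 reads per sample, so that 1 read was worth 0.0330 to 0.292 CPM. Replicates differed by more than counting noise in every pair (10.7 to 98.7 times). FT 1 week replicate 1 stood farthest from its group, with a median difference of 0.53 and 0.54 on the log2 scale from the other two samples, against 0.19 to 0.37 for all other pairs. FT 72 h replicate 1 had the highest level of its group for 10 of 12 listed monocyte genes.

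Levels are compared as log2(CPM + 0.5) with limma over all 20 samples. A gene is called where its Benjamini-Hochberg adjusted p over 16810 genes is under 0.05 and its change is at least 2-fold. The fold changes below are on this scale and understate the change of low genes. Since the samples are bulk RNA, fewer cells of a type and less RNA per cell cannot be told apart.

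To learn how border macrophage genes change after injury, each injured group was first compared with NI. The 10 genes did not move as 1 block. By 2 weeks Lyve1, Mrc1, Cd163, Pf4, F13a1 and Cbr2 were lower than in NI after both injuries, and Siglec1, Cd5l and Ms4a7 were higher. Folr2 was higher after FT, and its level 2 weeks after HS was not called. After FT all 10 genes were called at 2 weeks.

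At 72 h after HS, 3 genes were called higher and 0 lower, where 9.08% of all genes were called higher and 4.31% lower. At 1 week after HS, 3 were higher and 3 lower, against 1.70% and 0.482% of all genes. At 2 weeks after HS the counts were 3 and 6, against 2.43% and 0.797%. The share of all genes called in either direction was 13.4% at 72 h and 2.18% and 3.23% later. HS 1 week has 2 samples, and without its replicate 1 the calls of Lyve1, Pf4, Cbr2, Siglec1 and Cd5l there were lost, which left Folr2 as the 1 gene called. That of Siglec1 was lost without replicate 2 as well (adjusted p = 0.0822). With all columns scaled to the same total, Lyve1, Mrc1, Cd163 and Pf4 were called lower at 72 h after HS, for 2 genes higher and 4 lower in place of 3 and 0. Under that scaling 3.68% of all genes were called higher and 19.0% lower there, and the median of all genes was -0.52.

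After FT, 4 genes were higher and 2 lower at 72 h, where 8.14% and 4.09% of all genes were called. At 1 week 4 were higher and 3 lower, against 2.86% and 1.20%. At 2 weeks 4 were higher and 6 lower, against 3.53% and 1.36%. In either direction, 12.2%, 4.05% and 4.88% of all genes were called. All 6 comparisons share the same 3 NI samples. In order of time, the median change of the 10 genes was 0.72, -0.77 and -1.52 for HS and 0.86, -0.70 and -1.63 for FT, while the median over all genes lay between -0.11 and 0.02.

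The samples of the injured group and of NI did not overlap for 9 of the 10 genes 72 h after HS, where 49.0% of all genes did not overlap. The same held for all 10 a week after HS (37.3% of all genes) and 2 weeks after it (24.8%). After FT it held for 7 at 72 h (44.9%), 9 at 1 week (21.5%) and 10 at 2 weeks (30.7%).

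**Figure D1:**
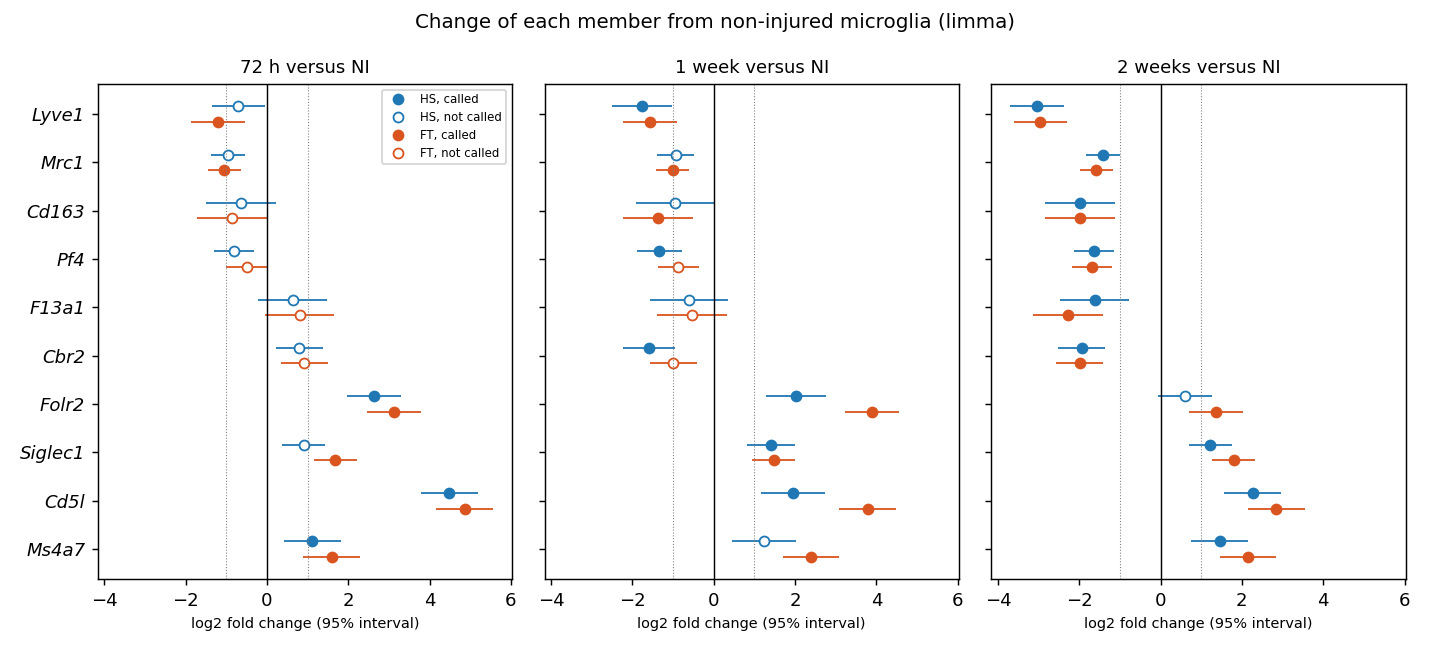
Log2 fold change of each gene from NI at 72 h, 1 week and 2 weeks, with the 95% interval from limma, for HS (blue) and FT (orange). Filled points passed the adjusted p and the 2-fold limit, which the dotted lines mark. At 2 weeks the upper 6 genes lie between -3.04 and -1.42 and the lower 4 between 0.61 and 2.84.

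The genes lie apart from each other in the genome, with Lyve1 and Folr2 on one chromosome and Mrc1 and Siglec1 on another. In build GRCm38 with the GENCODE annotation, the receptor genes are Lyve1 (chr7:110850607-110863239, -), Mrc1 (chr2:14229392-14332057, +), Cd163 (chr6:124304656-124330527, +), Folr2 (chr7:101839988-101857194, -) and Siglec1 (chr2:131069220-131086765, -). The genes of secreted proteins are Pf4 (chr5:90772435-90773383, +), F13a1 (chr13:36867178-37050244, -) and Cd5l (chr3:87357881-87371073, +), and the other two are Cbr2 (chr11:120729489-120732114, -) and Ms4a7 (chr19:11321039-11336146, -). All are protein coding, and reads were counted over their exons.

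Promoter sequence is given for 4 genes that differ in response, Mrc1 and Pf4, which fell, and Folr2 and Cd5l, which rose. RefSeq windows of build GRCm38.p6 were at hand for 8 of the 10 genes, all but Lyve1 and Siglec1. The 250 bases before each start are printed 5′ to 3′ on the strand of the gene, and capitals mark matches of GAGGAA, the core that PU.1 binds, in the first pair, and of TGCTGA, a part of the MAF recognition element, in the second pair. TTCCTC and TCAGCA are the same letters on the other strand. The Mrc1 window is chr2:14229164-14229413 (+), the Pf4 window chr5:90772185-90772434 (+), the Folr2 window chr7:101857191-101857440 (-) and the Cd5l window chr3:87357631-87357880 (+).
Mrc1: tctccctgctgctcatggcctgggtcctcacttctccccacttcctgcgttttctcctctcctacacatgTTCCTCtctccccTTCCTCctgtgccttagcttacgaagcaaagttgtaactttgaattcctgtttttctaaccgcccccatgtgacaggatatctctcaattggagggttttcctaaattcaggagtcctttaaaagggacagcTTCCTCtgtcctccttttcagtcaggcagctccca
Pf4: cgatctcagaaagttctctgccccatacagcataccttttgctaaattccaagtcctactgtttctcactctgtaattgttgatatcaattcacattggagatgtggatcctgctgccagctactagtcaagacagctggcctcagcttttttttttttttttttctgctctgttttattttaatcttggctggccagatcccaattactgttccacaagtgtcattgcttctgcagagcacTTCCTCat
Folr2: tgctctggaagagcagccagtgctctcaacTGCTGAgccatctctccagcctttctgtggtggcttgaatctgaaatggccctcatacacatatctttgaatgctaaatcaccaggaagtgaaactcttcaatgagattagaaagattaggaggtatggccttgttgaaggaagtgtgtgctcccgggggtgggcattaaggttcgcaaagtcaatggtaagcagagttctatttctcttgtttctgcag
Cd5l: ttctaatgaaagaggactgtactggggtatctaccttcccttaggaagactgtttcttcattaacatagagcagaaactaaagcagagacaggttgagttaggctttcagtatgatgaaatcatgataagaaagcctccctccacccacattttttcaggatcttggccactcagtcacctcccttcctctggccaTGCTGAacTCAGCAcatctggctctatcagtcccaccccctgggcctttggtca

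In the Mrc1 window the matches of GAGGAA began 180, 167 and 35 bases before the start, and in the Pf4 window 8 bases before it. TGCTGA began 220 bases before the start in the Folr2 window shown, and 54 and 46 bases before it in that of Cd5l. The 8 genes have 11 windows in all, since some have several starts. On both strands GAGGAA was found in 5 of the 11 windows (of Mrc1, Cd5l, Pf4, Cbr2 and F13a1) and in 23.3% of 32851 windows of all genes. TGCTGA was found in 3 of the 11 (of Cd5l and Folr2) and in 16.1% of all windows, and TGANTCA, the AP-1 site, in 2 of the 11 (of Folr2 and Ms4a7) and in 6.75%. CACGTG was found in 0 of the 11 and in 6.02% of all windows. GAGGAA stood before genes that fell and before Cd5l, which rose. These letters were picked with the levels known, and a match describes the sequence alone.

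Lyve1, the receptor for hyaluronan of lymphatic endothelium and of vessel-associated macrophages, fell the farthest. It stood at 12.1, 13.5 and 11.99 CPM in NI. After HS it was 5.15, 7.16 and 11.3 CPM at 72 h, 2.86 and 3.85 CPM at 1 week, and 1.56, 1.07 and 0.725 CPM at 2 weeks. After FT it was 7.61, 5.55 and 3.21 CPM at 72 h, 4.30, 3.56 and 3.86 CPM at 1 week, and 0.936, 0.871 and 1.91 CPM at 2 weeks. Every injured sample lay below every NI sample, and all samples at 2 weeks lay below all other samples. At 2 weeks the mean was 1.12 ± 0.419 CPM after HS and 1.24 ± 0.582 after FT (SD, n = 3), against 12.5 ± 0.850 in NI, which is 11.2 and 10.1 times lower. These levels rest on few reads, namely 10, 5 and 6 in the HS samples and 10, 10 and 25 in the FT samples. The log2 fold change was -3.04 (SE 0.32, adjusted p = 1.12e-06) and -2.95 (SE 0.32, adjusted p = 1.24e-06). It was -1.77 and -1.57 at 1 week and -1.20 at 72 h after FT (adjusted p = 0.00511, 0.00278 and 0.00806), and -0.70 (adjusted p = 0.102) at 72 h after HS. The call at 72 h after FT was lost without replicate 3 (-0.89, adjusted p = 0.0586).

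Mrc1, the mannose receptor CD206, which takes up glycoproteins, was lower at every time and did not pass 2-fold at all of them. NI samples held 69.5, 57.1 and 53.7 CPM. After HS the levels were 34.1, 26.3 and 31.6 CPM at 72 h, 34.9 and 27.5 CPM at 1 week, and 18.4, 24.2 and 24.2 CPM at 2 weeks. After FT they were 33.9, 28.9 and 23.9 CPM at 72 h, 25.4, 30.0 and 33.1 CPM at 1 week, and 15.4, 21.8 and 22.7 CPM at 2 weeks. No injured sample reached the lowest NI sample, and within the injured samples the 72 h and 1 week levels overlapped. The change was -1.42 (SE 0.20, adjusted p = 6.64e-05) at 2 weeks after HS and -1.58 (SE 0.20, adjusted p = 1.15e-05) after FT. At 72 h and 1 week it was -0.96 and -0.94 after HS, under 2-fold, and -1.05 and -1.01 after FT, just past it. Those last calls went under 2-fold without NI replicate 1 (-0.94 and -0.91), and also without FT 72 h replicate 3 (-0.92) and FT 1 week replicate 1 (-0.91).

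Cd163, the scavenger receptor for haemoglobin bound to haptoglobin, stood at 17.0, 16.2 and 13.4 CPM in NI. HS samples held 9.25, 8.67 and 11.5 CPM at 72 h, 8.17 and 7.46 CPM at 1 week, and 2.96, 3.85 and 3.99 CPM at 2 weeks. FT samples held 20.8, 3.80 and 6.86 CPM at 72 h, 4.30, 5.57 and 7.41 CPM at 1 week, and 1.68, 4.44 and 5.57 CPM at 2 weeks. FT 72 h replicate 1 lay above all NI samples, and every other injured sample lay below them. At 2 weeks the change was -1.97 (SE 0.41, adjusted p = 0.00502) after HS and -1.99 (SE 0.41, adjusted p = 0.0029) after FT. At 72 h after FT it was -0.86 (adjusted p = 0.134), and without replicate 1 it was -1.51 (adjusted p = 0.00448). At 1 week after FT it was -1.38 (adjusted p = 0.0458), a call that leaving out any 1 sample of FT 1 week or NI ended.

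Pf4, the chemokine CXCL4 of platelets and resident macrophages, had the highest level per length of the 10 genes in NI, at 78.1 CPM per kb of exon, followed by Cbr2 at 15.6 and Mrc1 at 9.44. Its NI samples held 50.9, 52.3 and 65.9 CPM. In HS samples it stood at 27.0, 41.3 and 28.9 CPM at 72 h, 20.02 and 23.8 CPM at 1 week, and 16.5, 18.0 and 19.0 CPM at 2 weeks. In FT samples it stood at 52.0, 41.5 and 28.2 CPM at 72 h, 32.8, 25.2 and 34.1 CPM at 1 week, and 11.9, 20.7 and 20.01 CPM at 2 weeks. FT 72 h replicate 1 lay inside the NI range, and all other injured samples lay below it. The change was -1.34, then -1.63, at 1 and 2 weeks after HS (adjusted p = 0.00495 and 0.000115) and -1.69 (SE 0.24, adjusted p = 4.75e-05) at 2 weeks after FT. At 1 week after FT it was -0.87 (adjusted p = 0.0277), under 2-fold. At 72 h after FT it was -0.50 (adjusted p = 0.13), and -0.70 (adjusted p = 0.0593) without replicate 1.

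F13a1 and Cbr2 crossed NI in time. F13a1 encodes the A chain of coagulation factor XIII, a transglutaminase that cross-links fibrin. It stood at 45.6, 33.7 and 29.4 CPM in NI. After HS it was 62.8, 53.4 and 51.5 CPM at 72 h, 25.3 and 21.3 CPM at 1 week, and 11.1, 12.2 and 10.5 CPM at 2 weeks. After FT it was 176, 36.2 and 38.6 CPM at 72 h, 15.9, 26.7 and 34.6 CPM at 1 week, and 4.49, 9.23 and 8.02 CPM at 2 weeks. All 72 h samples after HS lay above NI, and all 2 week samples of both injuries lay below it. At 72 h the changes of 0.64 (HS) and 0.81 (FT) did not pass (adjusted p = 0.256 and 0.159). At 2 weeks it was -1.62 (SE 0.41, adjusted p = 0.0203) after HS and -2.28 (SE 0.41, adjusted p = 0.000726) after FT, and the HS call was lost without NI replicate 1 or 2 or HS 2 weeks replicate 1 or 3 (adjusted p = 0.0658 to 0.103).

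The high value of F13a1 at 72 h after FT came from replicate 1 alone. Without it the change from NI was 0.07 (adjusted p = 0.9). In that sample Ccr2, the chemokine receptor of inflammatory monocytes, stood at 166 CPM against 68.1 and 57.0 CPM in the other two. Chi3l3 stood at 38.1 CPM there against 6.72 and 6.41. The whole monocyte list summed to 4290 CPM there and to 3171 and 2843 CPM in the others, while Ly6c2 was lowest in it. At 72 h after HS, replicate 1 was the lowest of its group for 9 of the 12 listed monocyte genes. It was the highest of that group for F13a1, at 62.8 CPM against 53.4 and 51.5 CPM. The part of monocytes in the level of F13a1 was not tested.

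Cbr2, a carbonyl reductase, stood at 18.7, 22.0 and 21.6 CPM in NI. HS samples held 50.7, 37.8 and 25.0 CPM at 72 h, 5.58 and 7.58 CPM at 1 week, and 3.43, 4.92 and 7.37 CPM at 2 weeks. FT samples held 35.4, 43.5 and 40.3 CPM at 72 h, 10.9, 8.43 and 11.2 CPM at 1 week, and 3.18, 5.92 and 5.96 CPM at 2 weeks. The samples of 72 h lay above NI and those of 1 and 2 weeks below it, with no overlap after either injury. At 72 h the change was 0.80 and 0.92 after HS and FT (adjusted p = 0.037 and 0.0189), under 2-fold. It was -1.60 (adjusted p = 0.00403) at 1 week after HS and -0.9996 (adjusted p = 0.0297) after FT, just short of the limit, and -1.05 (adjusted p = 0.0281), past it, without FT 1 week replicate 1. At 2 weeks it was -1.94 (SE 0.28, adjusted p = 8.64e-05) and -1.99 (SE 0.28, adjusted p = 4.33e-05).

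**Figure D2:**
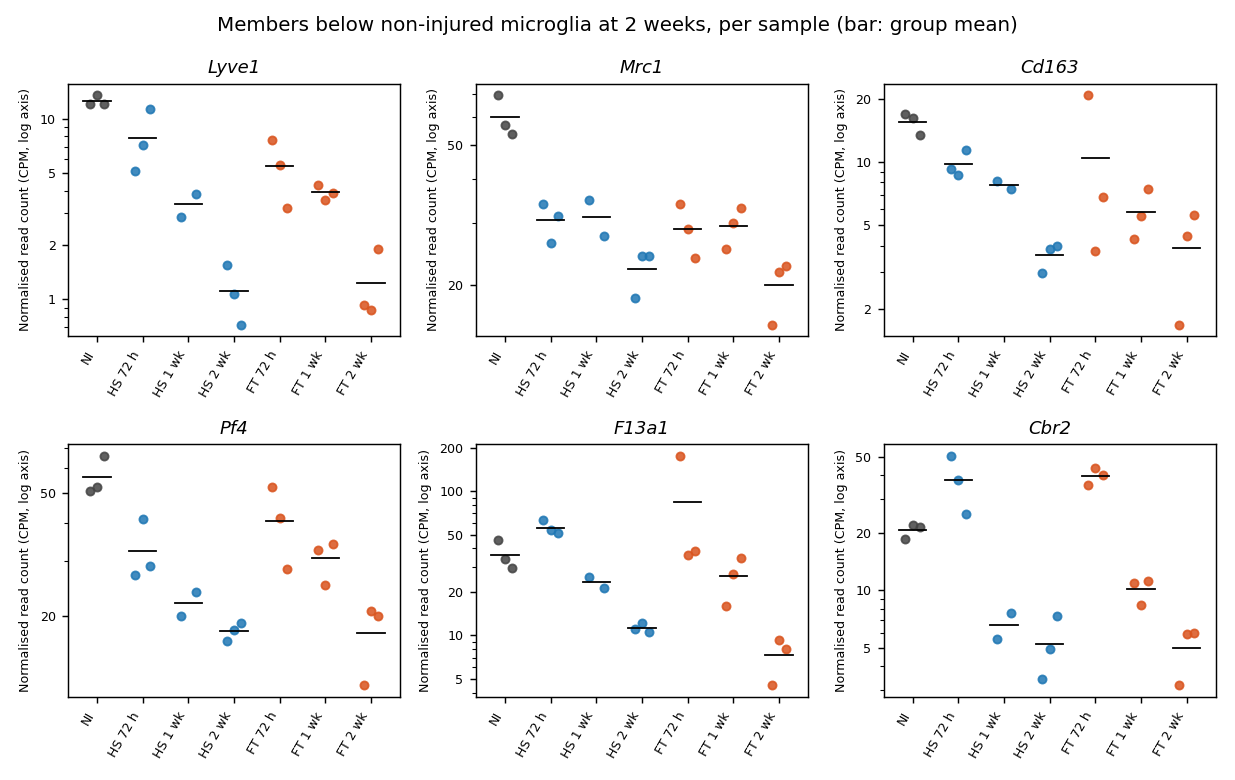
Normalised read count in CPM (log axis) of Lyve1, Mrc1, Cd163, Pf4, F13a1 and Cbr2 in each of the 20 samples, with a bar at each group mean, for NI (grey), HS (blue) and FT (orange). In FT 72 h, F13a1 holds 1 sample at 176 CPM and the other two at 36.2 and 38.6 CPM, and Cbr2 lies above NI at 72 h and below it later.

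The summed level of listed astrocyte genes in the sorted samples was lower at 2 weeks, as these genes were. The 6 listed astrocyte genes summed to 380 to 644 CPM in NI, to 160 to 299 CPM 2 weeks after HS and to 179 to 235 CPM 2 weeks after FT. Slc1a2, Gja1, Aldoc and Aqp4 were called lower at 2 weeks after both injuries, with changes of -2.07, -1.83, -1.81 and -2.03 after HS and -3.41, -3.15, -2.92 and -2.49 after FT, whereas Gfap and Slc1a3 were not called. Some were called lower sooner, namely Slc1a2 and Gja1 at 72 h and 1 week after HS, Slc1a2 at 72 h after FT, and Slc1a2, Gja1 and Aldoc at 1 week after FT. At 72 h after FT the list summed to 451 to 669 CPM, of which Gfap, called higher there, made up 254 to 356 CPM against 28.3 to 54.6 CPM in NI. The median change of the list there was -0.67. The authors reported GFAP protein in some eGFP-labelled microglia after injury. Which cells the transcripts of the astrocyte list came from was not tested. Any part of astrocytes in the fall of Lyve1, Mrc1, Cd163, Pf4, F13a1 and Cbr2 was not tested either. Listed endothelial genes, which include Prox1 and Flt4 of lymphatic vessels, summed to 61.8 to 77.3 CPM in NI. At 2 weeks they summed to 49.8 to 78.9 CPM after HS and to 50.0 to 76.7 CPM after FT. The sum does not show single genes. Pecam1 was called lower and Flt1 higher at 2 weeks after both injuries, and Pdpn higher after FT.

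Folr2, the folate receptor beta of resident and alternatively activated macrophages, rose the most among the receptors and fell again by 2 weeks. It stood at 3.87, 8.62 and 6.91 CPM in NI. In HS samples it stood at 45.5, 47.6 and 31.4 CPM at 72 h, 25.7 and 27.3 CPM at 1 week, and 9.67, 10.7 and 8.70 CPM at 2 weeks. In FT samples it stood at 28.7, 83.8 and 77.8 CPM at 72 h, 113, 77.1 and 110.3 CPM at 1 week, and 14.9, 20.8 and 15.2 CPM at 2 weeks. Every injured sample lay above every NI sample, by a narrow margin 2 weeks after HS (8.70 against 8.62 CPM). The rise at 72 h was 2.63 (SE 0.32, adjusted p = 3.21e-06) after HS and 3.12 (SE 0.32, adjusted p = 3.4e-07) after FT. At 1 week it was 2.02 (adjusted p = 0.00165) after HS and 3.90 (SE 0.32, adjusted p = 4.55e-08) after FT, 14.9-fold above NI, and 3.80 without FT 1 week replicate 1. At 2 weeks it was 0.61 (adjusted p = 0.367) after HS and 1.37 (adjusted p = 0.00726) after FT, the latter lost without NI replicate 1 (1.07, adjusted p = 0.0619).

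Siglec1, the sialic acid receptor CD169, which binds glycans on other cells, was higher at all times. NI samples held 6.85, 7.72 and 6.81 CPM. After HS it was 13.3, 15.7 and 12.5 CPM at 72 h, 19.5 and 20.1 CPM at 1 week, and 23.9, 12.4 and 17.5 CPM at 2 weeks. After FT it was 28.2, 19.0 and 25.3 CPM at 72 h, 20.9, 23.5 and 18.2 CPM at 1 week, and 41.5, 20.98 and 20.2 CPM at 2 weeks. No injured sample overlapped NI, and injured groups next to each other in mean level overlapped. HS 1 week and FT 72 h both lay above HS 72 h with no overlap. The change was 0.91 at 72 h after HS (adjusted p = 0.0113, under 2-fold), then 1.41 and 1.23 (adjusted p = 0.00544 and 0.00462). After FT it was 1.68, 1.48 and 1.80 (adjusted p = 5.45e-05, 0.000632 and 4.98e-05).

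Cd5l, a secreted scavenger-receptor protein also named AIM, was near the floor in NI, with 18, 2 and 4 reads, or 1.07, 0.257 and 0.384 CPM. It entered the table through the injured groups, as the filter asked for 10 reads in at least 2 samples. HS samples held 32.4, 18.3 and 18.7 CPM at 72 h, 4.08 and 2.89 CPM at 1 week, and 3.74, 3.42 and 6.52 CPM at 2 weeks. FT samples held 18.1, 33.0 and 41.1 CPM at 72 h, 14.1, 11.5 and 15.1 CPM at 1 week, and 6.27, 9.40 and 5.27 CPM at 2 weeks. All injured samples lay above NI, with the highest at 72 h. The change at 72 h was 4.49 (SE 0.34, adjusted p = 3.49e-09) after HS and 4.86 (SE 0.34, adjusted p = 1.15e-09) after FT. Its size depends on the value added before the logarithm, since after FT it was 5.63 with 0.1 CPM and 4.30 with 1 CPM. The change was 1.95 and 2.26 at 1 and 2 weeks after HS (adjusted p = 0.00384 and 0.00014), and 3.78 and 2.84 after FT (adjusted p = 1.46e-07 and 5.26e-06).

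Ms4a7, a membrane protein of the MS4A family found in macrophages, stood at 17.3, 15.4 and 18.6 CPM in NI. In HS samples it stood at 18.0, 65.5 and 44.5 CPM at 72 h, 38.1 and 43.7 CPM at 1 week, and 43.0, 55.8 and 44.9 CPM at 2 weeks. In FT samples it stood at 81.9, 54.3 and 32.9 CPM at 72 h, 93.3, 69.2 and 119 CPM at 1 week, and 81.6, 75.6 and 75.5 CPM at 2 weeks. HS 72 h replicate 1 stayed within the NI range, and all other injured samples lay above it. That sample was also the lowest of its group for 9 of the 12 listed monocyte genes. The change was 1.11, 1.23 and 1.45 after HS (adjusted p = 0.0179, 0.0925 and 0.0113), the second not called. After FT it was 1.60, 2.39 and 2.15 (adjusted p = 0.00138, 7.43e-05 and 0.00017). The call at 72 h after HS was lost without replicate 2 or 3 (0.71 and 0.99) or NI replicate 2 (adjusted p = 0.0662), and that at 2 weeks without HS 2 weeks replicate 2 (adjusted p = 0.051) or NI replicate 2 (adjusted p = 0.061). With all columns scaled to the same total, the change of Ms4a7 at 72 h after HS was 0.61.

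**Figure D3:**
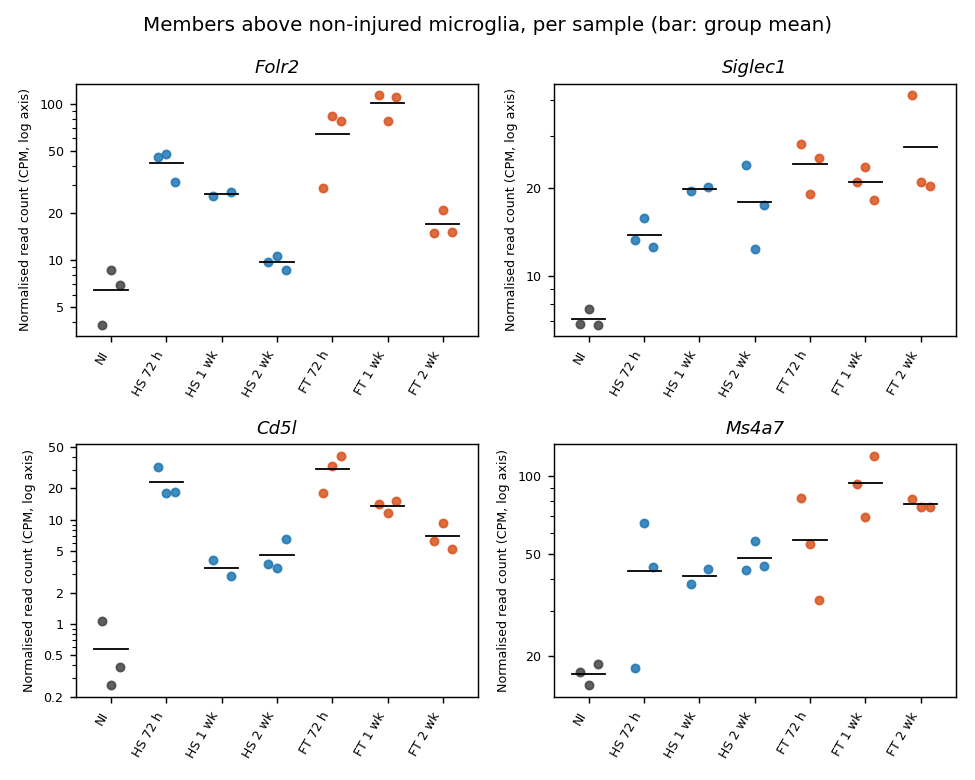
Normalised read count in CPM (log axis) of Folr2, Siglec1, Cd5l and Ms4a7 in each of the 20 samples, with a bar at each group mean, for NI (grey), HS (blue) and FT (orange). Folr2 and Cd5l peak at 72 h or 1 week and come down by 2 weeks, to 8.70 to 20.8 CPM and 3.42 to 9.40 CPM. For each of the genes shown, all samples at 2 weeks lie above all NI samples, for Folr2 after HS by a narrow margin.

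Monocyte genes rose beside these 4. The 12 listed monocyte genes summed to 760 to 875 CPM in NI, to 2482 to 3959 CPM in HS samples and to 2843 to 7608 CPM in FT samples. Of these 12 genes, 6, 4 and 4 were called higher in the HS groups in order of time and 9, 4 and 4 in the FT groups, and Fn1, Cd44, Lyz2 and Ms4a4c were among them each time. Ccr2, the defining receptor of inflammatory monocytes, ranged from 14.6 to 20.1 CPM in NI, from 34.6 to 100.2 CPM at 72 h after HS and from 57.0 to 166 CPM after FT, from 7.93 to 37.7 CPM at 1 week and from 14.5 to 23.4 CPM at 2 weeks over both injuries. Ly6c2 did not exceed 6.13 CPM in any sample. Without FT 72 h replicate 1, in which most of these genes were highest, the change at 72 h after FT was 3.61 for Folr2, 1.56 for Siglec1, 5.20 for Cd5l and 1.28 for Ms4a7, and all 4 stayed called. Without FT 1 week replicate 1, the change at 1 week after FT was 3.80 for Folr2, 1.48 for Siglec1, 3.75 for Cd5l and 2.38 for Ms4a7, all called, and -1.63 for Lyve1, called as well. The samples left at 72 h after FT still held Ccr2 at 68.1 and 57.0 CPM. The sample left out there was the lowest of its group for Folr2 and Cd5l. FT 1 week replicate 1 was the lowest of its group for 7 of the 12 monocyte genes. Leaving out these samples therefore does not separate infiltrating cells from others. The part of infiltrating cells in the rise of Folr2, Siglec1, Cd5l and Ms4a7 was not tested.

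Column totals ran from 777426 to 830481 CPM for NI and from 878070 to 1202190 CPM after injury, so the genes were also set against each other within each sample. These pairs were picked after the values were seen. Folr2 had 0.320 to 0.638 reads per Lyve1 read in NI, 2.78 to 8.83 at 72 h after HS and 6.2 to 12 at 2 weeks. After FT the ratio was 3.77 to 24.3 at 72 h, 21.7 to 28.6 at 1 week and 7.96 to 23.9 at 2 weeks. Every injured sample lay above every NI sample, which follows from the higher Folr2 and lower Lyve1 levels in each of them. Ms4a7 had 0.250 to 0.346 reads per Mrc1 read in NI, 0.527 to 2.49 over HS samples and 1.38 to 5.28 over FT samples, again with no overlap with NI. This too follows from the levels, except in HS 72 h replicate 1 (0.527), where Ms4a7 lay within the NI range. These ratios do not change with the scale of the columns.

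**Figure D4:**
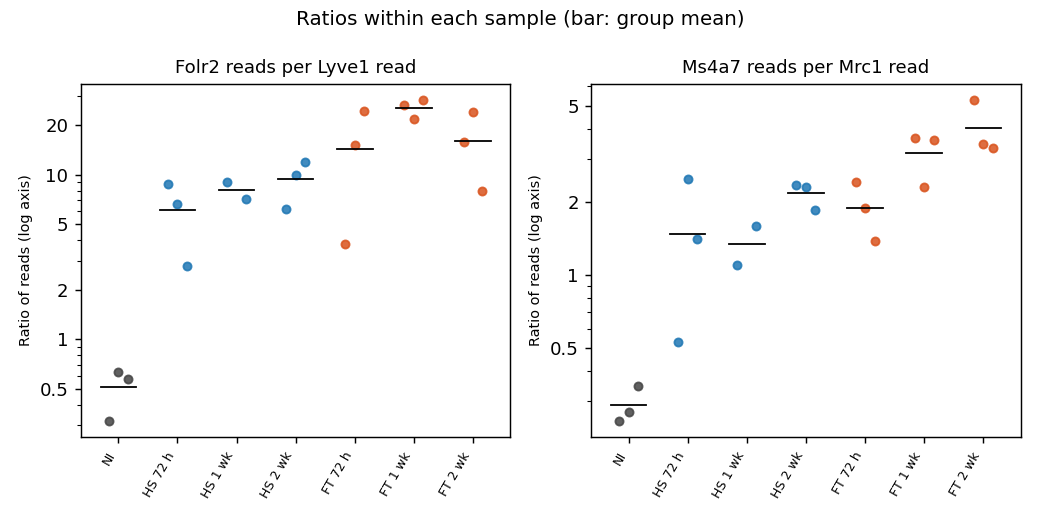
Reads of Folr2 per read of Lyve1 and of Ms4a7 per read of Mrc1 within each sample (log axis), with a bar at each group mean, for NI (grey), HS (blue) and FT (orange). All NI samples lie below 0.7 on the left and 0.4 on the right, and all injured samples lie above them.

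To ask whether severity matters, FT was compared with HS at the same time. With limma 0 of the 10 genes and 0 of all genes were called at any of the 3 times (0% of genes each time), and the quasi-likelihood test of edgeR on reads gave 0 as well. At an unadjusted p under 0.05, 1, 3 and 2 of the 10 genes stood out at the 3 times, against 505, 724 and 438 of all genes. The strongest differences of the 10 genes were those of Folr2 and Cd5l at 1 week. The samples of both injuries were apart for 1 of the 10 genes at 72 h (7.54% of all genes), for 6 a week after injury (15.0%) and for 3 after 2 weeks (8.15%).

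At 1 week Folr2 was 113, 77.1 and 110.3 CPM after FT and 25.7 and 27.3 CPM after HS. The difference was 1.88 (SE 0.36, 95% interval 1.14 to 2.62), with an adjusted p of 0.268 from limma. Cd5l was 14.1, 11.5 and 15.1 CPM after FT and 4.08 and 2.89 CPM after HS, a difference of 1.83 (SE 0.38, 95% interval 1.05 to 2.61), with an adjusted p of 0.286 from limma. All FT samples lay above both HS samples for both genes. The likelihood ratio test of edgeR called both (adjusted p = 0.0038 and 0.0256), among 8 genes or 0.0476% of the table, and DESeq2 did too (adjusted p = 0.00121 and 0.0214), among 7 genes or 0.0416%. Without FT 1 week replicate 1 the differences were 1.78 and 1.80 with limma (adjusted p = 0.152 for each). Ms4a7 differed by 1.16 (0.38 to 1.94, adjusted p = 0.999), and its FT samples lay above its HS samples too.

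Among the other differences, Siglec1 was 0.77 higher after FT at 72 h (95% interval 0.24 to 1.30) and 0.57 higher at 2 weeks (0.05 to 1.10), and Folr2 was 0.77 higher at 2 weeks (0.10 to 1.43). Their adjusted p was 1.00 in limma. At 72 h, without FT replicate 1, the difference of Folr2 was 0.98 in place of 0.48, that of F13a1 was -0.57 in place of 0.17, that of Cd163 was -0.86 in place of -0.22, and that of Lyve1 was -0.75 in place of -0.50 (adjusted p = 0.996 for all 4). For Lyve1 the interval at 2 weeks was -0.57 to 0.74, and for Mrc1 it was -0.57 to 0.25. Cd163 and Cbr2 had intervals of -0.87 to 0.85 and -0.62 to 0.53 there. Whether the severity difference itself changed with time was tested in the same fit, and 0 genes were called. The difference of Folr2 at 1 week exceeded that at 72 h by 1.39 (0.40 to 2.39, adjusted p = 0.996), and that of Cd5l by 1.45 (0.40 to 2.50, adjusted p = 0.996).

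**Figure D5:**
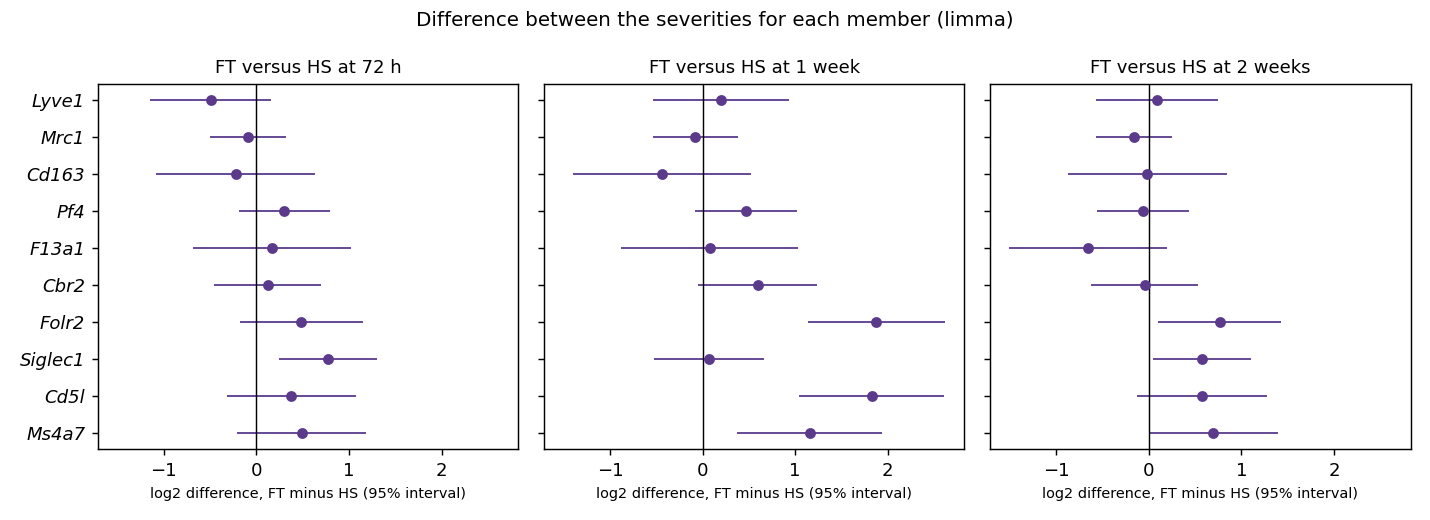
Log2 difference of FT minus HS for each gene at 72 h, 1 week and 2 weeks, with the 95% interval from limma, where 0 means equal levels. Folr2 (1.88) and Cd5l (1.83) at 1 week lie farthest from 0, and the intervals of Lyve1, Mrc1, Cd163, Pf4, F13a1 and Cbr2 include 0 at all 3 times.

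The times were then compared within each injury. From 72 h to 2 weeks 6 genes fell after HS, namely Lyve1, Cd163, Folr2, Cd5l, F13a1 and Cbr2, and 0 rose, where 4.74% of all genes were called, 3.37% lower and 1.37% higher. After FT 6 genes fell as well, with Pf4 in place of Cd163, where 3.81% were called, 2.68% lower and 1.13% higher. F13a1 and Cbr2 fell the most after FT, and Cbr2 and Lyve1 (-2.34) after HS. F13a1 changed by -2.26 (SE 0.41, adjusted p = 0.000983) after HS and -3.09 (SE 0.41, adjusted p = 2.79e-05) after FT, and Cbr2 by -2.74 (SE 0.28, adjusted p = 6.3e-07) and -2.91 (SE 0.28, adjusted p = 2.44e-07).

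The step at which a fall was called differed between genes, and the steps were not compared between genes by a test. After HS, Lyve1 changed by -1.06 from 72 h to 1 week and by -1.27 from 1 to 2 weeks. F13a1 changed by -1.24 and -1.02 there, and none of these changes was called. Between 72 h and 1 week, Cbr2 and Cd5l fell after HS by 2.39 and 2.53 on the log2 scale, where 6.03% of all genes were called and 4.07% were lower, and Cbr2 alone was called after FT (-1.92), where 3.44% were called and 2.62% were lower. Between 1 and 2 weeks 0 of the 10 genes were called after HS, where 2 of all genes (0.0119%) were, 0.00595% in each direction. By an unadjusted p under 0.05, 5 of the 10 and 789 of all genes passed there. After FT Folr2 alone was called between 1 and 2 weeks (-2.52, adjusted p = 0.000536), where 0.0714% of all genes were called and 0.0238% were lower. Lyve1 fell from 3.56 to 4.30 CPM to 0.871 to 1.91 CPM in this step (-1.39, adjusted p = 0.167), with no overlap. Mrc1, Siglec1 and Ms4a7 were called between no pair of times within an injury.

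The order of the groups by mean level separates the genes as well. NI came first for Lyve1, Mrc1, Cd163 and Pf4, and 2 weeks came last after either injury. For F13a1 and Cbr2 the order ran from FT 72 h and HS 72 h, which overlapped, through NI to the 2 week groups. Folr2 and Ms4a7 were highest 1 week after FT, where they overlapped FT 72 h and FT 2 weeks respectively. Cd5l was highest 72 h after FT, overlapping HS 72 h, and Siglec1 was highest 2 weeks after FT, overlapping FT 72 h. NI came last for these 4 genes, with no sample in common with the group above.

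Over the 20 samples, which share group means and sort, the log2 levels of Lyve1 had a Pearson r of 0.88 with Pf4, 0.83 with Cd163 and 0.81 with Mrc1. F13a1 had an r of 0.84 with Cbr2, and Folr2 of 0.80 with Cd5l. Mrc1 and Siglec1 ran opposite (r = -0.82), and Lyve1 and Folr2 had an r of 0.04. Outside the 10 genes, 14041 genes with a mean of at least 1 CPM were ranked by r with each of them over the same 20 samples. The closest to Lyve1 were Tmem44 (0.81), Bank1 (0.81) and Fgfr1 (0.80). The closest to Mrc1 were Prpsap2 (0.87), Itih3 (0.86) and Fgfr3 (0.85), and to Cd163 Tmem44 (0.85), Cyr61 (0.81) and Ddit4 (0.77). Among the genes closest to Pf4 were Scrg1 (0.83) and Gja1 (0.81).

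F13a1 was closest to Cfp (0.88), Nxpe5 (0.87) and Cd38 (0.85), and Cbr2 to Cryba4 (0.90), Anln (0.89) and Picalm (0.89). Among the genes that rose, Folr2 was closest to Wfdc17 (0.92), Gpx3 (0.90) and Anapc15 (0.86), and Cd5l to Psat1 (0.96), Gng5 (0.95) and Sepw1 (0.94). Siglec1 was closest to Sdc3 (0.91), Csf2rb (0.88) and Dgkz (0.88), and Ms4a7 to Lyz1 (0.93), Lyz2 (0.91) and Npr1 (0.86).

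A wider list of 32 border macrophage genes, of which 31 were in the table, held more genes called higher than lower in each comparison with NI. In order of time, 11, 4 and 5 were called higher after HS, against 9.08%, 1.70% and 2.43% of all genes. There 1, 0 and 2 were lower, against 4.31%, 0.482% and 0.797%. After FT 12, 6 and 5 were higher (8.14%, 2.86% and 3.53% of all genes) and 1, 2 and 2 lower (4.09%, 1.20% and 1.36%). The median change was 0.56, 0.15 and -0.26 after HS and 0.64, 0.32 and -0.06 after FT. Between FT and HS 0 of the 31 were called at any time by limma. Apoe, the lipid carrier of microglia and macrophages, had the largest rise in 5 of the 6 comparisons, and reached 5402 to 25539 CPM 2 weeks after FT against 283 to 939 CPM in NI (4.48, adjusted p = 0.000515). Wfdc17 rose by 2.66 at 72 h after HS and by 2.99 at 72 h and at 1 week after FT (adjusted p = 1.02e-08, 2.34e-09 and 5.6e-09). Colec12, a scavenger collectin, rose by 2.32 at 2 weeks after HS and 2.45 after FT, and Dab2, an endocytic adaptor, by 2.35 and 2.36 at 72 h.

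Mgl2, a lectin of border macrophages and dendritic cells, was the gene of this list that was lower most often. It stood at 26.2 to 42.8 CPM in NI, at 4.79 to 11.9 CPM at 72 h after HS and at 2.63 to 5.37 CPM at 72 h after FT, with no overlap. Its change was -2.001 and -2.95 there (adjusted p = 0.000553 and 9.21e-06), -1.60 at 2 weeks after HS, and -2.34 and -2.38 at 1 and 2 weeks after FT. Ednrb, the endothelin B receptor, was lower at 2 weeks after HS (-1.80) and at 1 and 2 weeks after FT (-1.64 and -1.93). Stab1 and Maf, a scavenger receptor and a transcription factor of tissue macrophages that microglia express as well, were called in none of these 6 comparisons. They are named here after their values were seen.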

How the data were processed

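CX3CR1+/eGFP cells of 20 samples were profiled by poly(A) RNA-seq. The authors trimmed reads with FASTX-Toolkit, aligned them to mm10 with TopHat2 2.0.9, counted genes with HTSeq 0.5.4p3 and normalised with edgeR 3.3.6, keeping genes with at least 10 counts in at least 2 replicates. Strand setting and batches are not given in the sources used here. The deposited values have the unit signal, which is CPM over an effective library size. All 336200 values were whole multiples (within 0.001) of what 1 read is worth in their column, which gave back the reads, 3872918 to 34099232 per sample.

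Groups came from the sample labels. log2(CPM + 0.5) was tested with limma 3.58.1 in R 4.3.3 with 1 mean per group over all 20 samples and a mean-variance trend, with Benjamini-Hochberg adjustment over 16810 genes, checked on simulated data. Reads were tested with edgeR 4.0.16 and DESeq2 1.42.0 as alternatives, beside 0.1 or 1 CPM added, a filter of 1 CPM in 2 samples, fits on the groups compared alone, other scalings, no fold limit, a replicate block and leaving out each sample. The 10 genes, the wider list and the cell type lists were chosen with earlier results of these data known. Genes of the wider list are named from the 3 largest and 3 smallest called changes of each comparison, and beside each of the 10 genes the 3 most correlated genes are named, except for an item that is not reported here. Gene positions are from GENCODE vM21 and promoters from RefSeq, both of build GRCm38.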

Additional observations from a re-analysis of the deposited data

Results flagged for a closer look

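The change from one time to a later one within an injury was tested with limma (adjusted p over all genes, at least 2-fold). Among the 10 genes it passed 16 times, always downward. Each time all later samples lay below all earlier ones, in genes already called. From 72 h to 1 and 2 weeks after HS, 4.07% and 3.37% of all genes were called lower, and 22.9% and 15.6% had all later samples below. After FT 2.62% and 2.68% were called lower, and 10.4% and 13.8% had all later samples below. From 1 to 2 weeks after FT the shares were 0.0238% and 3.28%. After HS, Cbr2 and Cd5l changed by -2.39 and -2.53 from 72 h to 1 week. From 72 h to 2 weeks, Cbr2 changed by -2.74, Cd163 by -1.33, Cd5l by -2.22, F13a1 by -2.26, Folr2 by -2.02 and Lyve1 by -2.34. After FT, Cbr2 changed by -1.92 from 72 h to 1 week. From 72 h to 2 weeks, Cbr2 changed by -2.91, Cd5l by -2.02, F13a1 by -3.09, Folr2 by -1.74, Lyve1 by -1.75 and Pf4 by -1.18. From 1 to 2 weeks, Folr2 changed by -2.52. The call of Cd163 was lost when any 1 of its 6 samples was left out, and that of Pf4 without FT 72 h replicate 1 (-0.99) or FT 2 weeks replicate 1 (-0.93). Whether the fall over time differed between FT and HS was tested as an interaction, and 0 of the 10 genes passed.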

How the results depend on the processing

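Of the 57 called changes of the 10 genes, 0 changed sign, 41 stayed called under every alternative run and 42 when any 1 sample was left out. The calls lost were 3 with columns scaled to the same total, 1 with quantile normalisation, 1 with 0.1 CPM added and 2 with the replicate block, and 0 with either edgeR test or DESeq2. Scaling to the same total moved the median of all genes to -0.52 at 72 h after HS and -0.48 after FT.

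The number of genes called at 72 h after HS against NI was 6 with columns scaled to the same total and 7 with no fold limit. For FT against HS at 1 week it was 2 with the likelihood ratio test of edgeR and with DESeq2. For FT from 72 h to 1 week it was 2 with 1 CPM added and 3 with either edgeR test or DESeq2, and from 1 to 2 weeks 3 with the likelihood ratio test and DESeq2. The cause was not tested.

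With 1 sample left out in turn, the counts against NI ran, in order of time, from 2 to 4, 1 to 7 and 7 to 9 after HS and from 4 to 8, 5 to 6 and 9 to 10 after FT. For FT against HS they ran from 0 to 0 at every time. Over time they were 2 to 3, 5 to 5 and 0 to 0 after HS, and 1 to 2, 5 to 7 and 1 to 1 after FT. Where HS 1 week was left with 1 sample, it was assumed to vary like the other groups.

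The replicate numbers showed no pairing of the samples by correlation. For this, the group mean of each gene was taken off its log2 levels, and samples of different groups were correlated on what was left. The 57 pairs with the same number had correlations of -0.39 to 0.378, and the 114 pairs with other numbers of -0.40 to 0.390. Whether samples share a batch was not tested. With the replicate block, Cd163 lost its call at 1 week after FT against NI (adjusted p = 0.0579) and from 72 h to 2 weeks after HS (adjusted p = 0.0532), which left 6 and 5 genes called. The block changed no other call. Depth limits Cd5l in NI, with 2 to 18 reads, and Lyve1 at 2 weeks, with 5 to 25.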

Other observations

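Genes of the cell cycle rose at 72 h. All 8 listed proliferation genes were called higher after both injuries, among them Rrm2 (5.29 after HS and 4.79 after FT) and Mki67 (3.93 and 4.20), and their sum went from 29.9 to 34.9 CPM in NI to 671 to 1231 CPM after HS and 695 to 848 CPM after FT. At 1 week Cdk1 alone was called after either injury. Of the 12 microglial genes, Fcrls was called higher at 72 h after both injuries and at 1 week after FT. Tmem119 was called lower at 72 h after both, Slc2a5 at 1 and 2 weeks after both, and P2ry12 at 2 weeks after FT.

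Listed genes of other cell types gave few calls, apart from those of astrocytes. Of 7 neutrophil genes Camp alone was called (lower at 72 h after HS), and of 6 lymphocyte genes Nkg7 alone (higher at 72 h after FT). The neutrophil list summed to 26.3 to 94.4 CPM in NI and reached 274 CPM in 1 sample of FT 2 weeks, and the lymphocyte list did not exceed 14.6 CPM. Of 10 endothelial genes, Pecam1 was lower at 1 and 2 weeks after both injuries, Flt1 higher at 2 weeks after both, and Pdpn higher at 72 h after both and at 2 weeks after FT. Of 8 mural and fibroblast genes, Col3a1 was higher at 72 h after both injuries and Dcn lower at 2 weeks after FT. Of 6 neuronal genes, Snap25 was lower at 72 h after HS and at all times after FT, and Stmn2 at 1 week after FT. Of 6 astrocyte genes, Gfap was higher at 72 h after both injuries and at 1 week after FT. Slc1a2 was lower in all 6 comparisons and Gja1 in 5, all but 72 h after FT. Aldoc was lower at 1 week after FT, and Aldoc and Aqp4 were lower at 2 weeks after both injuries. Of 6 oligodendrocyte genes and of Alas2, the erythroid gene in the table, 0 were called by limma.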
